A study of Ovis aries with 17 samples.

Results

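Plasmacytoid DC (pDC) from sheep blood were compared with XCR1-negative dendritic cells (XCR1- DC) from sheep blood, by setting the 3 arrays labelled pDC against the 3 arrays labelled XCR1- DC, which are 6 of the 17 arrays of the series. The results are described for the genes that carry a symbol, either in the array files or through an NM accession: 422 symbols were on the array, 415 had a value on every array, and 269 of the 11311 genes or gene identifiers tested had one. The animals were female Prealpe sheep of unstated age, and no treatment or genotype was given for either group. Low density blood cells were sorted by flow cytometry on surface proteins. The pDC were large cells negative for a B cell marker, CD11b, TCR1 (the gamma/delta T cell receptor), CD8 and CD11c and positive for CD45RB. The XCR1- DC were large cells, drawn from several sheep, that were positive for CD11c, low for CADM1 and high for CD172 and negative for the B cell marker, CD11b, TCR1 and CD45RB. Neither sort named CD3. RNA of distinct animals was mixed where a sort gave too little, and the arrays concerned are not stated, so an array is not always 1 animal. The study asked which sheep subset matches which human and mouse subset. The other groups were B lymphocytes (B, 4 arrays) and macrophages (MP, 3 arrays) of the spleen, cultured MoDC (3 arrays) and a single array of XCR1-positive DC (XCR1+ DC).

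pDC are blood-borne dendritic cells that sense viral nucleic acids through endosomal Toll-like receptors and release large amounts of type I interferon, and their identity depends on the transcription factor TCF4. Conventional dendritic cells instead specialise in taking up antigen and presenting it to T cells. They depend on the growth factor receptor FLT3 and on the transcription factor ID2, which opposes TCF4, and the XCR1-positive branch further requires BATF3. XCR1-negative dendritic cells share surface proteins and many transcripts with monocytes.

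The 3 pDC arrays lay on 3 slides and the 3 XCR1- DC arrays on another, which was also read with another scanner and another version of the image software. Slide and cell type therefore cannot be told apart within this pair, and no slide gave a within-slide value. The link between the slides was B replicate 4, on the slide of the XCR1- DC, against B replicates 1 to 3, each on a slide of 1 pDC array. A gene was marked for a slide shift where B replicate 4 lay outside the range of B replicates 1 to 3 on the side on which XCR1- DC lay from pDC. The share of spots well above background was 68.3% to 72.3% on the pDC arrays and 72.2% to 80.2% on the XCR1- DC arrays. Across genes, arrays correlated at r = 0.934 to 0.956 among pDC, at 0.982 to 0.989 among XCR1- DC and at 0.820 to 0.875 between both groups. The median SD of a gene was 0.41 in pDC and 0.21 in XCR1- DC on the log2 scale. The number of arrays limits the precision. Since nothing says that arrays of a group came from separate animals, the p-values measure the spread between arrays only, pooled over the groups of the series.

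Levels below are log2 signals from which the array's own 75th percentile was subtracted, so that 0 is a signal equal to that percentile, and values are given for replicates 1, 2 and 3 in order. Differences are pDC minus XCR1- DC on that log2 scale, with the standard error (SE) of the limma fit to all 17 arrays. The call required a p below 0.05 after Benjamini-Hochberg adjustment over all genes together with a difference of at least 2-fold. Because the spread is pooled over groups, a gene that varies among B, MP or MoDC arrays can go uncalled although pDC and XCR1- DC lie apart. The median SE was 0.45, beside 0.29 in a fit to only the 6 arrays of both groups. Of the 11311 genes tested, 2285 (20.2%) were called, of which 1056 (9.34% of those tested) were higher in pDC and 1229 (10.9%) were higher in XCR1- DC. Among the 269 genes with a symbol 91 were called, 27 higher in pDC and 64 higher in XCR1- DC, and the median difference of the 269 was -0.40 beside -0.06 over all genes. The gene lists below hold only genes with a symbol, so 27 and 64 of 269 are the closer shares for their counts. The arrays of both groups did not overlap for 164 of the 269 genes with a symbol, beside 52.0% of all genes tested. They overlapped for none of the 91 called, of which nothing is read, since the call uses the same arrays. Of the genes called, 1021 of 2285 and 28 of the 91 with a symbol were marked for a slide shift, beside 35.7% of all genes tested. B replicate 4 departed the other way, toward pDC, for 239 of the 2285 and 11 of the 91, beside 12.4% of all genes tested. With slide as a block, a fit in which the single B replicate 4 sets the offset between the slides, 426 genes (3.77%) were called, 24 of them among the 91.

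**Figure D1:**
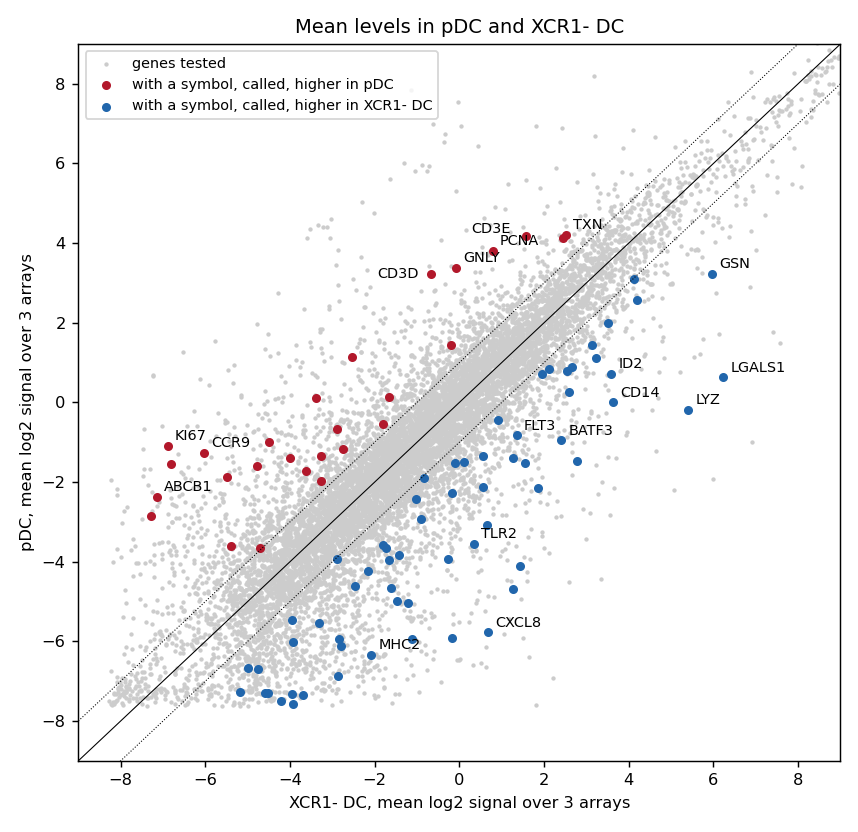
Mean log2 signal of each of the 11311 genes tested in XCR1- DC (horizontal axis) and pDC (vertical axis), 3 arrays each, relative to the 75th percentile of the array. The solid line marks equal levels and the dotted lines a 2-fold difference; the 27 red points and the 64 blue points are called genes with a symbol, higher in pDC and in XCR1- DC respectively.

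The probes on the array are 60 bases long and their sequences were taken as the array files write them. Below are the probes of 7 genes among those named by the largest differences, in lower case, to show what the signals were measured with. Capitals mark a stop codon that follows at least 15 codons without a stop in the same forward frame, which is a description of the letters and not a mapped position.
ABCB1: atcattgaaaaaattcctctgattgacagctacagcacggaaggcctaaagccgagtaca
CCR9: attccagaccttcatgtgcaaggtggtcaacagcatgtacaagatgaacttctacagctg
KI67: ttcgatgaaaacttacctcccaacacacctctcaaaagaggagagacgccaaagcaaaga
GNLY: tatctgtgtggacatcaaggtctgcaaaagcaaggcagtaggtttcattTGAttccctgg
LYZ: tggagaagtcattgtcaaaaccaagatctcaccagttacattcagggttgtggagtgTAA
LGALS1: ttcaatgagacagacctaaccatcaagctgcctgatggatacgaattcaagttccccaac
TLR2: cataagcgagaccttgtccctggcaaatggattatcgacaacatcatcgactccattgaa

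ABCB1, CCR9 and CCR10 were all higher in pDC. ABCB1, which encodes a drug efflux pump of the plasma membrane, read -2.57, -1.95 and -2.60 in pDC and -7.18, -7.05 and -7.20 in XCR1- DC. Its probe was well above background on all 3 pDC arrays and on none of the XCR1- DC arrays, so that it was at least 11.96-fold higher in pDC (adjusted p = 7.0e-04), and it was called with slide as a block as well (difference 5.57, adjusted p = 0.0175). On the other arrays, B cells read -7.35 to -5.41, the XCR1+ DC array read -6.65, and the MP mean was -6.72, all below the pDC arrays, while the MoDC mean of -2.75 was close to them. ABCG2, the other ABC transporter tested, differed by 1.16 ± 0.41 (SE) and was not called (adjusted p = 0.0570).

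CCR9, a chemokine receptor that guides cells to the small intestine and is carried by mouse pDC, read -1.03, -2.46 and -0.30 in pDC and -6.10, -8.38 and -3.61 in XCR1- DC, where 1 of 3 arrays was well above background. The difference was 4.77 ± 1.06 (SE, adjusted p = 0.00488), and with the arrays below background set no lower than their lowest signal well above background, as below for other genes measured on only some arrays of a group, it was at least 17.5-fold higher in pDC. With slide as a block it was 5.03 and no longer called (adjusted p = 0.195), and B replicate 4 departed from the mean of the other B arrays by 0.26. The difference was 3.59 without XCR1- DC replicate 2, 5.98 without XCR1- DC replicate 3 and 5.37 without pDC replicate 2, and was called each time. CCR10, a receptor known for homing of lymphocytes to skin and mucosa, read -0.06, 0.12 and 0.24 in pDC against -3.70, -3.17 and -3.31 in XCR1- DC. The values within each group were close together and the groups far apart, at 3.50 ± 0.41 (SE), 11.3-fold (adjusted p = 4.1e-05, and 0.0301 with slide as a block).

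All 5 genes of the pDC list on the array were tested and 1, CCR9, was called, near the 20.2% called of all genes tested, with a median difference of 0.56 beside -0.06 over all genes. TCF4, the transcription factor that sets pDC identity, read 1.07, 0.71 and 1.78 in pDC and 0.79, 0.53 and 0.83 in XCR1- DC. The ranges overlapped, and the difference of 0.47 ± 0.75 (SE) was not called (adjusted p = 0.707). IRF8, a transcription factor of dendritic cell development, read 4.42, 4.50 and 5.62 and 4.44, 4.10 and 4.33 in the same order, a difference of 0.56 ± 0.41 (SE) that was not called (adjusted p = 0.375). A second IRF8 probe, with no run of more than 6 bases in common with the first, gave a difference of 0.61. TLR9, the sensor of unmethylated DNA, read -3.88, -5.67 and -3.94 in pDC and -5.38, -6.05 and -5.68 in XCR1- DC (difference 1.21, adjusted p = 0.148), and its probe was well above background on 2 arrays of each group. IRF1, an interferon-induced transcription factor, had a difference of -2.03 and was not called (adjusted p = 0.104).

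Genes of T and natural killer (NK) cells that were called were higher on the pDC arrays. Of the 11 genes of that list on the array 6 passed the filter on dim probes, and 3 of these were called, all higher in pDC (9.34% over all genes tested), with a median difference of 2.28 beside -0.06 over all genes. CD3D, a chain of the T cell receptor complex, read 3.70, 2.94 and 3.02 in pDC and -0.92, -0.81 and -0.28 in XCR1- DC, which is 14.8-fold higher in pDC (difference 3.89 ± 0.47 SE, adjusted p = 4.9e-05). It was called with slide as a block too (difference 3.55, adjusted p = 0.0355). CD3E, another chain of the complex, read 4.64, 3.12 and 4.74 against 1.19, 1.66 and 1.85, 6.05-fold (adjusted p = 0.00171, and 0.0395 with the block). Every pDC array lay above every XCR1- DC array for both genes.

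GNLY, which encodes granulysin, a toxic granule protein of T and NK cells, read 2.11, 4.97 and 3.08 in pDC and 0.10, -0.10 and -0.25 in XCR1- DC. All pDC arrays lay above all XCR1- DC arrays, and replicate 2 stood above the other pDC replicates. The difference was 3.47 ± 0.99 (SE), 11.1-fold (adjusted p = 0.0225). The call was lost without pDC replicate 2, where the difference was 2.68 (without pDC replicate 1 it was 4.11 and called), without any single XCR1- DC array (3.38 to 3.56), and with slide as a block (3.61, adjusted p = 0.304). The level in B cells was lower than in both groups, at -4.36 to -1.92.

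CD247, the zeta chain of the same receptor complex, had a difference of 1.96 ± 0.73 (SE) that was not called (adjusted p = 0.0692), although its arrays did not overlap. CTLA4 and IL2RA, which mark activated and regulatory T cells, differed by 0.53 and 0.32 and were not called (adjusted p = 0.515 and 0.799). CD28, IL2, IFNG, CD40LG and FASL, also on the list, did not pass the filter. XCL1, the chemokine that binds XCR1 and is made by NK and T cells, read 0.29, 2.66 and 0.43 in pDC and -2.71, -2.66 and -2.22 in XCR1- DC, 12.6-fold higher in pDC (adjusted p = 0.00125), and was not called with slide as a block (4.12, adjusted p = 0.118). As with GNLY, replicate 2 was the highest pDC array, and without it the XCL1 difference was 2.89 and still called.

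Summed over the 6 T and NK genes tested, the signal in units of the array's 75th percentile was 44.97 to 49.6 on the pDC arrays, 4.62 to 6.18 on the XCR1- DC arrays, 7.39 to 9.72 on B cell arrays and 1.07 to 2.63 on MP arrays. Each of the 6 genes was well above background on all pDC and XCR1- DC arrays. In RNA from a whole sort, fewer cells of a type and less RNA per cell cannot be told apart. The part of T or NK cells in the differences above was not tested.

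**Figure D2:**
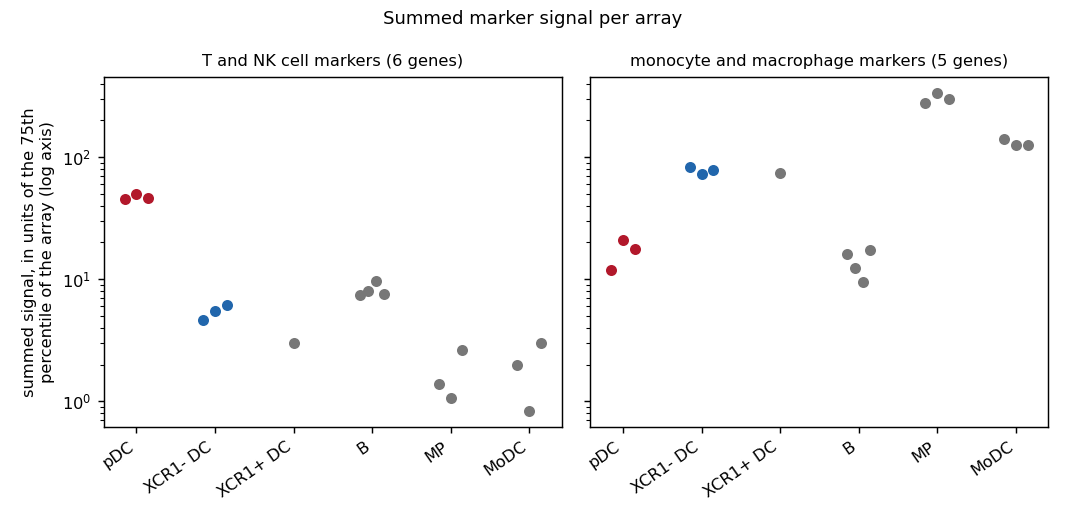
Summed signal per array (log axis, in units of the 75th percentile of the array) of the 6 T and NK cell markers and the 5 monocyte and macrophage markers tested, with 1 point per array in each of the 6 groups. The pDC arrays (red) lie highest for the T and NK genes, at 44.97 to 49.6, and the XCR1- DC arrays (blue) at 73.03 to 82.8 lie above pDC and below MP for the monocyte and macrophage genes.

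KI67, which encodes a nuclear protein of dividing cells, read -1.30, -0.74 and -1.23 in pDC and -6.71, -6.61 and -7.34 in XCR1- DC, where no array was well above background, and was at least 29.1-fold higher in pDC (adjusted p = 8.9e-05). B replicate 4 lay 1.33 below the mean of the other B arrays, and with slide as a block the difference was 4.47 and not called (adjusted p = 0.110). PCNA, the sliding clamp of DNA replication, and DNMT1, which copies DNA methylation onto new strands, are set beside it here after their values were seen. PCNA read 3.57, 4.17 and 3.68 in pDC and 0.96, 0.87 and 0.53 in XCR1- DC, 8.13-fold higher in pDC (adjusted p = 7.0e-04). DNMT1 was 3.22-fold higher (adjusted p = 0.0197), and its call was lost without pDC replicate 2 (1.55) or XCR1- DC replicate 2 or 3 (1.63 and 1.66). Both were marked for a slide shift and neither was called with slide as a block (PCNA 1.63, adjusted p = 0.244; DNMT1 0.76, adjusted p = 0.636).

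FST, the secreted activin antagonist follistatin, read -1.16, -2.80 and -0.69 in pDC and -7.63, -5.65 and -7.17 in XCR1- DC, where 1 of 3 arrays was well above background. It was at least 17.6-fold higher in pDC (adjusted p = 1.6e-04), was marked for a slide shift, and was not called with slide as a block (3.62, adjusted p = 0.175). Without pDC replicate 2 the difference moved from 5.27 to 5.90. The protease gene KLK1 (a tissue kallikrein) was well above background on every pDC array and on no XCR1- DC array and was at least 8.60-fold higher in pDC (adjusted p = 1.7e-04, and 0.0416 with slide as a block). After normexp background correction with quantile normalization its difference was 0.99 and the call was lost. MLN, the gut peptide motilin, read -1.07, -0.44 and -1.45 in pDC and -4.57, -4.68 and -4.21 in XCR1- DC, 11.3-fold (adjusted p = 1.5e-05). It was called with slide as a block as well (2.72, adjusted p = 0.0245), although B replicate 4 was marked. SLAMF1, a signalling receptor of lymphocytes and dendritic cells, was 9.02-fold higher in pDC (adjusted p = 0.00340), and the gene named DIAP3 in the files, well above background on 2 of 3 XCR1- DC arrays, at least 11.1-fold (adjusted p = 0.00108). Neither was called with the block (adjusted p = 0.333 and 0.168), and SLAMF1 was marked for a slide shift.

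**Figure D3:**
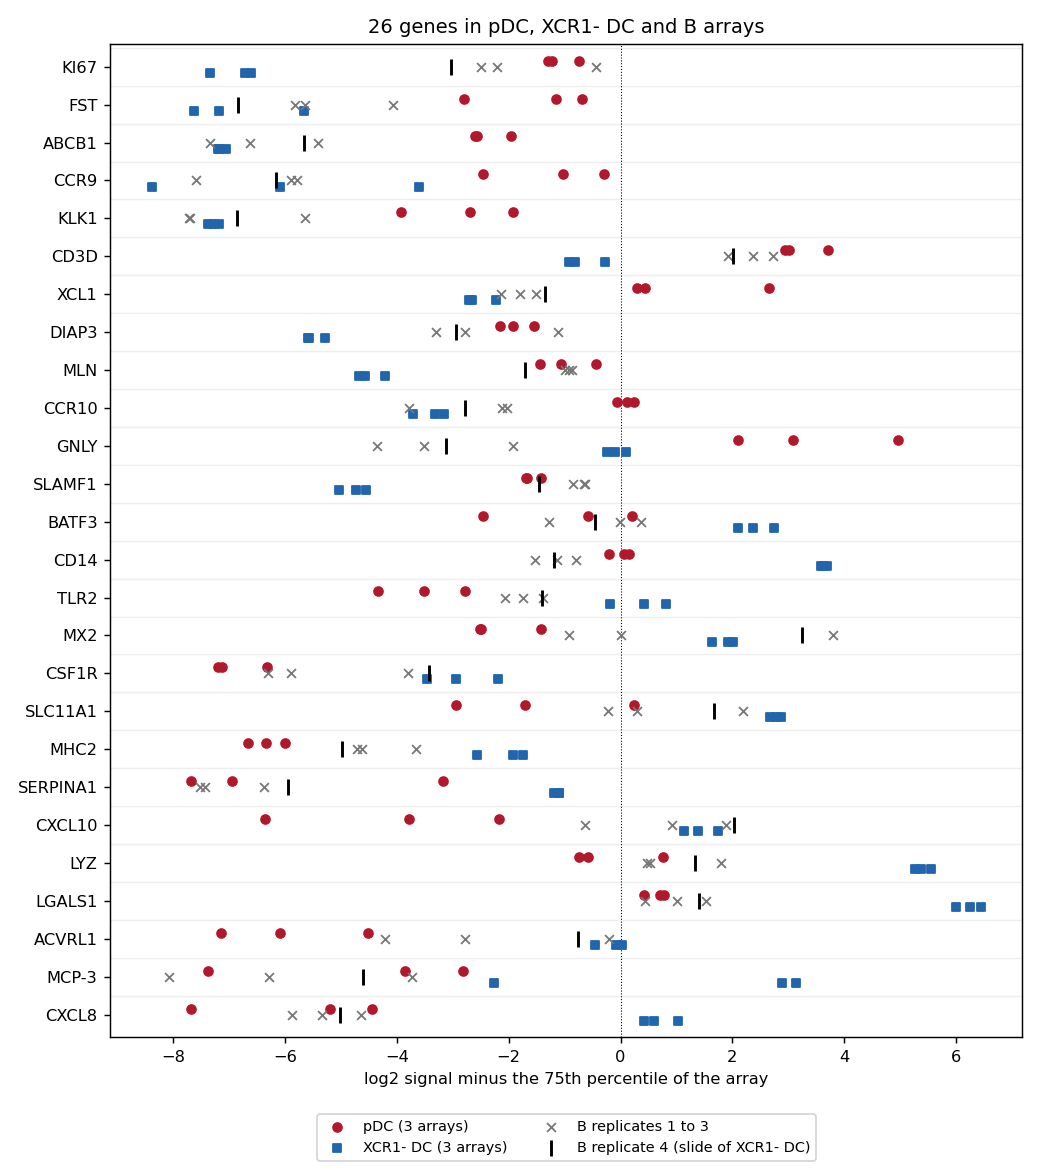
Log2 signal minus the 75th percentile of the array (horizontal axis) of 26 genes, the 12 with the largest called differences in each direction plus CD14 and BATF3, on 3 pDC arrays (red circles), 3 XCR1- DC arrays (blue squares), B replicates 1 to 3 (crosses) and B replicate 4 (bar), which shared the slide of the XCR1- DC. Red and blue do not overlap in any row, while the bar lies away from the crosses toward the XCR1- DC in some, such as CSF1R and KI67.

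Genes of conventional dendritic cells that were called were higher in XCR1- DC than in pDC. Of 7 genes of that list on the array 6 were tested and 4 were called, all higher in XCR1- DC (10.9% over all genes tested), with a median difference of -2.12 beside -0.06 over all genes. All 4 stayed called with slide as a block, beside 206 of the 1229 genes called higher in XCR1- DC and 18 of the 64 with a symbol. BATF3, a transcription factor of the XCR1-positive branch, read 0.20, -2.46 and -0.58 in pDC and 2.10, 2.75 and 2.36 in XCR1- DC. It was 10.2-fold higher in XCR1- DC (difference -3.35 ± 0.57 SE, adjusted p = 7.3e-04, and 0.0142 with the block). Among pDC, replicate 2 was the lowest, and without it the difference was -2.59. The XCR1+ DC array, which came from the same slide as the XCR1- DC, read 6.24.

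ID2, the inhibitor of E proteins that opposes TCF4, read 0.57, 0.94 and 0.64 in pDC and 3.60, 3.78 and 3.39 in XCR1- DC, 7.32-fold higher in XCR1- DC (adjusted p = 2.6e-05). Its means in MP and MoDC were higher still, at 4.19 and 4.84, and the B cell mean was 0.80. FLT3, the receptor that sustains dendritic cells, read -1.06, -1.24 and -0.16 against 1.502, 1.30 and 1.26, 4.51-fold higher in XCR1- DC (adjusted p = 0.00319). For both genes B replicate 4 lay on the opposite side, and the differences with slide as a block were larger, at -3.58 and -3.48 (adjusted p = 0.00384 and 0.00559).

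XCR1, the receptor whose absence names the group, read -3.65, -4.72 and -4.31 in pDC and -1.58, -2.63 and -2.29 in XCR1- DC. It was 4.19-fold higher in XCR1- DC than in pDC (adjusted p = 0.00460, and 0.0336 with the block), and the XCR1+ DC array read 2.61, above both groups. After normexp and quantile normalization the difference was -0.76 and not called. CADM1, one of the sort markers and therefore no independent evidence, read 0.32, -0.05 and -0.63 in pDC and -1.48, -1.57 and -1.56 in XCR1- DC (difference 1.42, adjusted p = 0.132). CLEC9A, a receptor for dead cells on the XCR1-positive branch, was at background level on all 6 arrays.

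Of 5 monocyte and macrophage genes tested, 4 were called, all higher in XCR1- DC, beside 10.9% of all genes tested, and the median difference was -3.63 beside -0.06. The summed signal of the 5 was 11.9 to 20.99 on the pDC arrays, 73.03 to 82.8 on the XCR1- DC arrays, 74.8 on the XCR1+ DC array and 278 to 335 on the MP arrays. Most of the pDC sum came from ITGB2, the gene not called, which read 3.35, 4.28 and 3.88 in pDC and 4.54, 4.49 and 4.54 in XCR1- DC. LYZ, the antibacterial enzyme lysozyme, read -0.74, -0.58 and 0.76 in pDC and 5.55, 5.27 and 5.38 in XCR1- DC, 48.05-fold higher in XCR1- DC (difference -5.59 ± 0.55 SE, adjusted p = 1.1e-05, and 0.0150 with slide as a block). CD14, the lipopolysaccharide co-receptor of monocytes, read 0.06, -0.20 and 0.15 in pDC and 3.62, 3.58 and 3.69 in XCR1- DC. The arrays spanned 0.35 within pDC and 0.11 within XCR1- DC, and the difference was -3.63 ± 0.36 (SE), 12.4-fold (adjusted p = 1.3e-05, and 0.00973 with the block, where it was -3.66). A second CD14 probe, sharing no run of more than 5 bases with the first, gave a smaller difference of -1.53 in the same direction. CD14 was also high on the XCR1+ DC array, at 3.02, and higher still in MP, at a mean of 6.12.

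CSF1R, the receptor of the macrophage growth factor, read -6.32, -7.19 and -7.14 in pDC, where no array was well above background, and -2.19, -3.46 and -2.95 in XCR1- DC. It was at least 5.43-fold higher in XCR1- DC (adjusted p = 5.9e-04). B replicate 4 lay 1.91 above the mean of the other B arrays, and with slide as a block the difference was -2.11 and not called (adjusted p = 0.324). After normexp and quantile normalization it was -0.80 and the call was lost as well. ITGAM, which encodes CD11b, against which both groups were sorted, was at least 1.47-fold higher in XCR1- DC (adjusted p = 0.00241), and the call was lost after normexp and quantile normalization (-0.15), in the authors' series table (-0.45) and with slide as a block (-1.33). ITGB2, its partner chain, differed by -0.69 and was not called (adjusted p = 0.305). SIRPA, which encodes the sort marker CD172, did not pass the filter on dim probes, so the array gives no check of it.

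LGALS1, which encodes the sugar-binding protein galectin-1, read 0.78, 0.42 and 0.71 in pDC and 6.002, 6.45 and 6.25 in XCR1- DC. Its difference of -5.60 ± 0.42 (SE), 48.4-fold higher in XCR1- DC, had an adjusted p of 1.3e-06, and of 0.00220 with slide as a block. The XCR1+ DC, MP and MoDC levels were near those of XCR1- DC (XCR1+ DC 6.86, MP mean 5.42, MoDC mean 5.73), and B cells, at 0.44 to 1.52, were near pDC. SLC11A1, a metal transporter of the phagosome, read -2.94, -1.70 and 0.24 in pDC and 2.67, 2.78 and 2.87 in XCR1- DC, 18.9-fold (adjusted p = 7.9e-04), and was not called with the block (-3.33, adjusted p = 0.232). Its difference was -3.51 without pDC replicate 1 and -5.10 without pDC replicate 3, both called. SERPINA1, the protease inhibitor alpha-1-antitrypsin, read -6.95, -7.68 and -3.17 in pDC, where 1 of 3 arrays was well above background, and -1.18, -1.10 and -1.10 in XCR1- DC (difference -4.81, adjusted p = 0.0334), at least 10.9-fold higher in XCR1- DC. Its call was lost without any single pDC or XCR1- DC array except pDC replicate 3 (-4.84 to -3.94), without which the difference was -6.19. It was marked for a slide shift and not called with the block (-3.64, adjusted p = 0.696).

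Of 14 inflammatory and cytokine genes tested, 8 were called, all higher in XCR1- DC, with a median difference of -2.12. That direction was called for 10.9% of all genes tested and for 64 of the 269 with a symbol. With slide as a block 2 of the 8 stayed called, beside 206 of the 1229 genes called in that direction and 18 of the 64 with a symbol. CXCL8, the neutrophil-attracting chemokine also called interleukin-8, read -5.20, -7.69 and -4.44 in pDC, where 1 of 3 arrays was well above background, and 0.42, 1.04 and 0.60 in XCR1- DC. Its difference was -6.46 ± 0.92 (SE, adjusted p = 1.8e-04), at least 51.2-fold higher in XCR1- DC, and it was called with slide as a block (-6.19, adjusted p = 0.0301). Without pDC replicate 2 or 3 the difference was -5.51 and -7.13, both called. MP and MoDC means were higher than XCR1- DC, at 2.48 and 7.84. CXCL10, an interferon-induced chemokine for T cells, read -6.35, -3.79 and -2.18 in pDC and 1.75, 1.14 and 1.38 in XCR1- DC, at least 33.8-fold higher there with 2 of 3 pDC arrays well above background (adjusted p = 9.5e-04). It was marked for a slide shift and not called with the block (-4.22, adjusted p = 0.169). Its difference was -4.40 without pDC replicate 1 and -6.49 without pDC replicate 3, both called, and the B cell arrays, at -0.63 to 2.02, overlapped the XCR1- DC level.

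The gene with the accession-derived name MCP-3, a monocyte-attracting chemokine, read -3.86, -7.38 and -2.82 in pDC and -2.27, 3.13 and 2.90 in XCR1- DC. XCR1- DC replicate 1 lay far below replicates 2 and 3, and the difference of -5.94 ± 1.505 (SE, adjusted p = 0.0113) lost its call without pDC replicate 2 (-4.59) or without XCR1- DC replicate 2 or 3 (-4.9999 and -5.12), and with slide as a block (-4.51, adjusted p = 0.466). It was -6.87 without pDC replicate 3 and -7.70 without XCR1- DC replicate 1, both called. Of the pDC arrays 2 of 3 were well above background. ICAM1, an adhesion molecule for leukocytes, was 8.23-fold higher in XCR1- DC (difference -3.04, adjusted p = 0.00192), and with the block the difference was -3.11 and not called (adjusted p = 0.143). IL6, the cytokine interleukin-6, was well above background on no pDC array and was at least 1.71-fold higher in XCR1- DC (adjusted p = 0.00796). It was marked for a slide shift, and its call was lost with the block (-1.72), after normexp and quantile normalization (-0.27) and in the authors' series table (-0.98).

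PTGS2, the inducible prostaglandin synthase, was measured by probes at separate spots with the same 60 bases, under the names PTGS2 and PGHS2. The PTGS2 probe read -6.66, -5.66 and -2.67 in pDC and -0.39, -2.14 and -1.86 in XCR1- DC. The PGHS2 probe read -7.21, -5.21 and -2.70 in pDC and -0.22, -1.89 and -1.52 in XCR1- DC, at most 0.54 away from it on any of the 6 arrays, and both count among the 14 genes above. The differences were -3.53 ± 1.0000 and -3.83 ± 1.04 (SE; adjusted p = 0.0209 and 0.0165). Each call was lost with slide as a block (-1.82 and -2.08) and without pDC replicate 1 (-2.70 and -2.75), pDC replicate 2 (-3.21 and -3.75) or XCR1- DC replicate 1 (-2.998 and -3.34). pDC replicate 3 was the highest pDC array for both (without it the differences were -4.70 and -4.999), and the PTGS2 probe was well above background on 1 pDC array and the PGHS2 probe on 2.

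TLR2, the receptor for bacterial lipoproteins, read -3.51, -4.34 and -2.78 in pDC and -0.20, 0.81 and 0.41 in XCR1- DC, 14.8-fold higher in XCR1- DC (adjusted p = 5.1e-05, and 0.0493 with slide as a block). Of the 6 interferon and antiviral genes tested, 1 was called, beside 20.2% of all genes tested, and the median difference was -1.55 beside -0.06. The gene called was MX2, an antiviral GTPase, at -2.52, -2.50 and -1.43 in pDC and 1.93, 1.63 and 2.01 in XCR1- DC (difference -4.005 ± 1.12 SE, adjusted p = 0.0202). B cells ranged from -0.93 to 3.80 for this gene, and the call was lost with slide as a block (-1.72, adjusted p = 0.802) and without any single pDC or XCR1- DC array except pDC replicate 3 (-4.12 to -3.82). ISG15, a ubiquitin-like protein induced by interferon, and MX1 differed by -2.68 and -1.08 and were not called (adjusted p = 0.125 and 0.211), and with slide as a block ISG15 changed sign, to 0.20.

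Of the 20 genes of the TGF-beta and activin family on the array 11 were tested, 4 were called higher in XCR1- DC and 2 higher in pDC, beside 10.9% and 9.34% of all genes tested, with a median difference of -0.44 beside -0.06. The 4 were receptors. ACVRL1, a type I receptor known from blood vessels, read -6.09, -7.14 and -4.52 in pDC, where 1 of 3 arrays was well above background, and -0.08, -0.45 and 0.03 in XCR1- DC (difference -5.75 ± 0.92 SE, adjusted p = 4.6e-04), at least 28.9-fold higher in XCR1- DC. The difference was -5.13 without pDC replicate 2 and -6.45 without pDC replicate 3, both called. The type II receptor BMPR2, well above background on 1 of 3 pDC arrays, was at least 4.52-fold higher in XCR1- DC (difference -3.10, adjusted p = 0.00391), with a difference of -2.32 without pDC replicate 2 and -3.81 without pDC replicate 3, both called. The type II receptor ACVR2B and the type I receptor ACVR1 were 4.92-fold and 2.998-fold higher in XCR1- DC (adjusted p = 0.00485 and 0.00376). The 2 genes higher in pDC encode inhibitors: FST, described above, and BAMBI, a decoy receptor without a kinase, at 3.78-fold (adjusted p = 0.0297). The BAMBI call was lost without pDC replicate 2 (1.58) or XCR1- DC replicate 1 (1.44). No gene of the list was called with slide as a block, with adjusted p from 0.175 for FST to 0.456 for BAMBI among the 6.

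INHBA, a subunit of activin, shows how far identical probes can part at low signal. Its probes shared all 60 bases:
INHBA: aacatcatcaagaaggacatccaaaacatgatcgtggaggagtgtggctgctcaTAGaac
The probe used gave a difference of 0.26 and the other -1.69, with opposite signs, and each was well above background on at most 1 of 3 pDC arrays and on 2 of 3 XCR1- DC arrays. INHBA was not called (adjusted p = 0.797).

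Of the MHC and antigen presentation list, 3 genes were tested and none was called by limma, beside 20.2% of all genes tested, with an unadjusted p under 0.05 for 1 of them. CD86, a ligand of T cell co-stimulation, differed by -0.74 (adjusted p = 0.0864), CD80, its relative, by 0.60 (adjusted p = 0.310), and B2MG, the light chain of MHC class I, by 0.14 (adjusted p = 0.845). The probe that the files name MHC2, which was not on the list, read -6.67, -6.33 and -5.9999 in pDC, with no array well above background, and -1.74, -2.57 and -1.93 in XCR1- DC. It was at least 9.35-fold higher in XCR1- DC (adjusted p = 3.0e-04, and 0.0201 with slide as a block). On the other arrays it read -4.99 to -3.65 in B cells and -6.22, -6.17 and -3.16 in MP. The MoDC mean was -3.02, and the XCR1+ DC array read -1.84. MP replicates 1 and 2 lay below the lowest signal well above background on their arrays, -4.24 and -4.79. The files give a bovine gene identifier for the probe, which was not matched to a symbol here, and whether it measures MHC class II RNA was not tested.

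**Figure D4:**
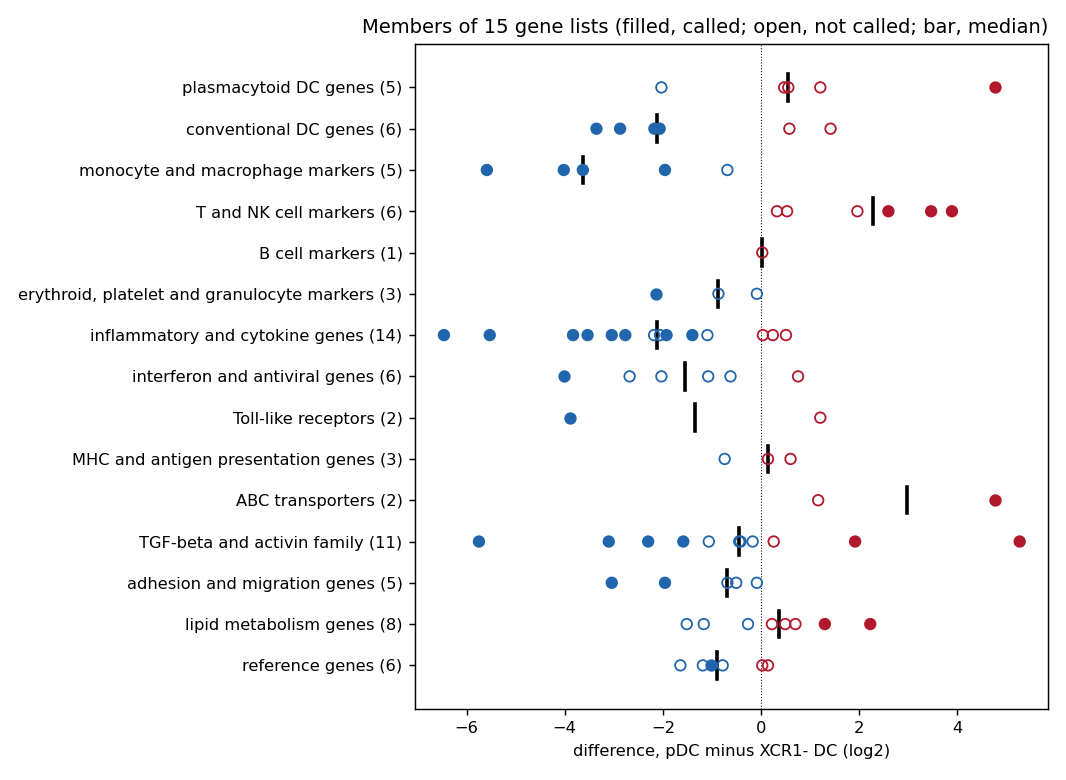
Difference between pDC and XCR1- DC (log2, horizontal axis) of each tested member of 15 gene lists, with the number tested in brackets. Filled points were called and open points were not, red points are higher in pDC and blue points higher in XCR1- DC, and the bar is the median; the 4 called conventional DC genes and the 8 called inflammatory genes all lie on the XCR1- DC side and the 3 called T and NK genes on the pDC side.

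The counts of the remaining lists stand beside the 20.2% called of all genes tested. Of 8 lipid metabolism genes tested, 2 were called, both higher in pDC: PPARG, a lipid-sensing nuclear receptor, at 4.68-fold (adjusted p = 0.00178, and 0.107 with the block), and CPT1B, a mitochondrial carnitine transferase, with a difference of 1.30 (adjusted p = 0.0382). The CPT1B difference changed sign with slide as a block (-0.29), and its call was lost without any single pDC or XCR1- DC array except pDC replicate 3 (1.21 to 1.42). Among 3 erythroid, platelet and granulocyte markers, LTF, the granule protein lactoferrin, was higher in XCR1- DC by 2.15 ± 0.73 (SE, adjusted p = 0.0482). The call was lost without any single pDC or XCR1- DC array (-2.53 to -1.90) and with slide as a block (-4.05, adjusted p = 0.0986). HBB, a globin chain, differed by -0.87 (adjusted p = 0.499). CR2, a complement receptor and the only B cell marker tested, differed by 0.03 (adjusted p = 0.990). Of 5 adhesion and migration genes, 2 were called, ICAM1 and ITGAM, both given above.

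Over the 6 reference genes tested, often used as unchanging controls, the median difference was -0.91 beside -0.06 over all genes. GAPDH, EF1A1 and HPRT1 differed by -1.64, -1.18 and -0.78 and were not called (adjusted p = 0.158, 0.213 and 0.0592). ACTB read 0.17, 0.58 and -0.36 in pDC and 0.03, 0.0002 and 0.28 in XCR1- DC, a difference of 0.02 that changed sign under 4 of the other processing settings and without any of 3 single arrays.

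The 24 genes with a symbol that were called both with and without slide as a block comprised 6 higher in pDC and 18 higher in XCR1- DC, beside 209 and 206 over all genes tested. The 6 were ABCB1, KLK1, CD3D, CD3E, CCR10 and MLN, all given above. Those higher in XCR1- DC included CXCL8, LGALS1, LYZ, MHC2, TLR2, CD14, BATF3, ID2, FLT3 and XCR1. Of the 24, 2 were marked for a slide shift. Apart from CPT1B, 1 of the 91 called genes changed sign with the block, which was CALM2, a calmodulin gene. It read 2.34, 1.86 and 1.78 in pDC and 3.54, 3.63 and 3.34 in XCR1- DC (difference -1.51, adjusted p = 0.0196), and B replicate 4, at 3.18, stood with XCR1- DC while B replicates 1 to 3, at 1.32, 1.36 and 1.92, stood with or below pDC, so that the blocked difference was 0.14 (adjusted p = 0.976). CALM2 also lost its call without pDC replicate 2 or 3 or XCR1- DC replicate 1 or 2 (-1.49 to -1.41).

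**Figure D5:**
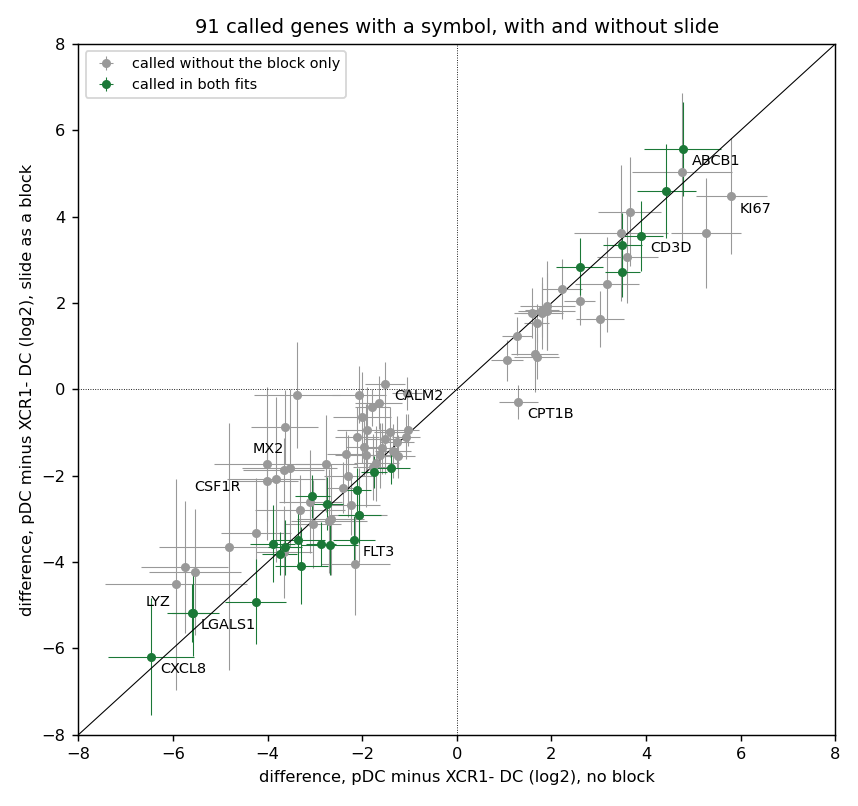
Difference between pDC and XCR1- DC (log2) of the 91 called genes with a symbol, without a block (horizontal axis) and with slide as a block (vertical axis), with bars for the SE of each fit and a line of equality. The 24 green points were called in both fits; CALM2 and CPT1B lie across 0 from where they stood without the block, and MX2 and CSF1R lie well off the line.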

How the data were processed

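The 17 arrays, each hybridised with 1 Cy3-labelled RNA on a custom Agilent sheep design of 15744 spots (536 controls), were read by the authors with Feature Extraction 10.7.3.1 (12 arrays) or 10.10.1.1 (5 arrays, among them XCR1- DC). The deposited files give a background-corrected intensity per spot on a linear scale, not normalized between arrays, with median spot and background intensities and flags for signal, saturation and outliers (other columns, as deposited). A deposited table of the whole series gives log2 values as the authors normalized them; its rows carry running numbers and were matched to probes in alphabetical order of their names, an order in which r between a column and the array it belongs to was higher than with any other array for all 17 (0.969 to 0.988, against at most 0.0110 in spot order), and it served only as an alternative. The authors' notes name limma.

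Here, values were log2(processed signal) minus each array's 75th percentile over non-control spots. No spot was saturated, and 273 outlier spots were left out. Probes well above background on over 50% of their spots on every array of at least 1 group were kept (11549 of 14842), and the probe with the highest sum was used per gene (11311 genes). Symbols were taken from the gene name column or by accession from RefSeq (sheep assembly ARS-UI_Ramb_v3.0, names only); 26 file names absent from that table were kept as written. Of the 10 genes with a symbol and several probes tested, 4 had probes of opposite sign. Group means were fitted to all 17 arrays with limma 3.58.1 in R 4.3.3. A lower bound on a fold ("at least") sets the bright group's mean against the dim group's, each dim array taken at its lowest signal well above background where the probe lay below that. In a group with only some arrays well above background, the other arrays were treated so. The fit was tested on simulated data: of genes changed by 1.5, 2 and 3 on the log2 scale among 11311, 28.1%, 57.5% and 81.0% were called, with 7 false calls. The simulated arrays had independent noise and no shift between slides, so the 7 false calls do not cover calls that a slide shift could make.

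Named were the 12 genes with a symbol and the largest called difference in each direction, GNLY, ABCB1, CD14 and BATF3, and members of 15 gene lists by counts with at most 6 examples. The comparison, its rule and the lists were chosen with earlier results of these data known, and PCNA, DNMT1, CALM2 and INHBA were named after their values were seen. Alternatives covered normalization, background correction, filters, blocks, probe choice and single arrays. The result of 1 member of the reference gene list is not reported here.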

Additional observations from a re-analysis of the deposited data

Results flagged for a closer look

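For MLN, B replicate 4 lay at -1.71, apart from the other 3 B arrays at -0.99 to -0.88, with a gap to the nearest of them of 0.860 of the whole range of the B group. Of 70 genes examined over the 4 B arrays this was the only one past Dixon's 95% limit, and chance alone puts about 1 in 20 groups past it. MLN is marked for a slide shift and was called with slide as a block.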

How the results depend on the processing

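Of the 46 called genes that are named, 44 kept their sign under each of the 16 other settings fixed at the start that tested them and 1 chosen after seeing the data (without B replicate 4), the exceptions being CPT1B and CALM2 with slide as a block. A strict filter on dim probes left 28 of the 46. Without any single pDC or XCR1- DC array 34 kept their call, and 27 kept it under every setting fixed at the start that tested them other than slide as a block. The count of called genes moved most with slide as a block, to 426 from 2285, with a median SE of 0.64 against 0.45, and 415 of the 426 were called without the block as well. It lay between 1550 (normexp with quantile normalization) and 3148 (only the 6 arrays) under the other settings, and between 1591 and 2137 without any single pDC or XCR1- DC array (without XCR1- DC replicate 2 and pDC replicate 3). The share of called genes higher in pDC, 46.2%, moved to 49.4% with quantile normalization, 52.0% with a strict filter, 50.7% with slide as a block, 43.1% with only the 6 arrays, and 44.4% to 48.7% without single pDC or XCR1- DC arrays. Replicate numbers did not pair the samples (r of deviations -0.11, -0.04 and 0.03 for same-numbered arrays). The replicate block gave 2667 called genes, 42.3% of them higher in pDC, and 2240 of the 2285 kept their call. The genes called and marked for a slide shift fell from 1021 to 414 when a shift of at least 1 was required, and were 1106 to 1351 without B replicate 1, 2 or 3.

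Signs turned with slide as a block for ISG15 (0.20), CR2 (-0.0089), CPT1B (-0.29), ACTB (-1.03) and CALM2 (0.14), for ACTB also with slide as a random block (-0.22), after normexp and quantile normalization (-0.033) and in the authors' table (-0.044), and for INHBA with the mean of its probes (-0.72). Without single pDC or XCR1- DC arrays CR2 ranged from -0.38 to 0.60, INHBA from -0.59 to 0.71 and ACTB from -0.20 to 0.27. Apart from the block's own dependence on B replicate 4, the cause was not tested. Probes not well above background limit the folds, and levels near the floor have no order.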
